A study of Macaca nemestrina with 15 samples.

Results

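The genes described here are 43 genes of the cell division cycle, 18 that copy DNA in S phase (the replication genes) and 25 that act in mitosis (the mitotic genes). They were named as a list with earlier results of these data known, and were looked up by symbol among the 28865 features of the count table. The table held 42 of the 43, with no row named *BIRC5*. After a filter on low counts, 41 were tested among 12880 features in all, 17 replication and 24 mitotic genes. *CLSPN*, which encodes the fork checkpoint adaptor claspin, did not pass the filter, with 1 to 13 counts per library.

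Expression was measured by RNA-seq in peripheral blood mononuclear cells (PBMCs) of 5 female pig-tailed macaques (*Macaca nemestrina*). Every animal received islatravir (ISL), a nucleoside analog that inhibits HIV reverse transcriptase, by mouth at 30 mg/kg once weekly, and there were no untreated animals. Each animal gave 3 libraries, labelled pre-treatment, week 12 and week 18, which makes 15 libraries. The paper places week 12 at the end of treatment and week 18 after it. By the dates that the libraries carry in their names, the week 12 and week 18 samples lay 56 or 57 days and 84 days after the first. These intervals are shorter than the week names, and the paper itself gives different weeks for the last sample in its methods and in a figure legend. The week names used here are those of the labels. Whether treatment had ended at a sample could not be checked from the dates. Time since the first dose and treatment cannot be told apart in this design. Only Z15339, Z15303 and Z15408 had all their libraries on the same dates. Between 5610597 and 10379572 counts fell on genes per library, and the smallest libraries were those of Z15303 at week 12 and week 18 (5610597 and 5886482 counts).

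Before DNA is copied, ORC, CDC6 and CDT1 load the MCM2-7 helicase onto origins, which licenses them, and CDC45 and the GINS complex then switch the helicase on. PCNA clamps the polymerases to the template, and ribonucleotide reductase (RRM1, RRM2), TYMS and TK1 supply the nucleotides. E2F factors drive many of these genes at the G1 to S transition, while the mitotic genes peak in G2 and M, when CDK1 with its cyclins builds the spindle and the anaphase-promoting complex with CDC20 ends mitosis. Most circulating lymphocytes and monocytes are not dividing, so cycling cells are a minority of PBMCs. How much of each transcript came from cycling cells was not measured here, and it can differ between genes. In these bulk samples fewer cycling cells and less RNA per cycling cell cannot be told apart.

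Expression is given as CPM (a gene's counts scaled to a common library size) from libraries scaled by the TMM method, as mean ± SD over the 5 animals. CPM was not divided by transcript length, so levels are compared between libraries and not between genes. Fold changes were estimated within animals by edgeR's quasi-likelihood F test with the animal as a block, and a gene was called at an adjusted p under 0.05, by the Benjamini-Hochberg method over all 12880 tested features. The 3 comparisons share libraries (both comparisons with pre-treatment use the same pre-treatment libraries, and week 18 vs. week 12 uses the later ones again), so they are not independent of each other.

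Among the licensing genes, *MCM2*, a subunit of the replicative helicase, had 31.6, 30.7, 62.4, 30.3 and 22.4 CPM in the pre-treatment libraries of Z15228, Z13076, Z15339, Z15303 and Z15408. In the same order of animals it had 32.4, 40.8, 49.3, 17 and 33.2 CPM at week 12 and 28.1, 38.0, 36.0, 27.0 and 38.1 CPM at week 18. The time points overlapped, with means of 35.5 ± 15.5, 34.6 ± 12.0 and 33.4 ± 5.46 CPM, and Z15339 stood highest before treatment and at week 12. *MCM5*, another subunit of the helicase, had 46.8, 40.1, 62.0, 40.5 and 25.1 CPM before treatment, 49.2, 49.4, 49.5, 24.4 and 46.3 CPM at week 12, and 40.9, 40.2, 43.9, 34.2 and 57.7 CPM at week 18. At week 12, 4 animals lay within 46.3 to 49.5 CPM and Z15303 was well below them. The log2 fold changes of *MCM2* were −0.03 (SE 0.19), −0.03 (SE 0.19) and 0.00 (SE 0.18) for week 12 and then week 18 against pre-treatment and for week 18 against week 12, and those of *MCM5* were 0.02, 0.03 and 0.01 (SE 0.19 each). For both genes each estimate of the change within animals was smaller than its SE.

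*PCNA*, the sliding clamp at the fork, varied little. It had 44.2, 49.2, 52.9, 41.8 and 36.0 CPM before treatment, 53.6, 45.3, 50.2, 41.0 and 42.7 CPM at week 12, and 40.9, 40.0, 53.3, 39.2 and 50.6 CPM at week 18, in the same order of animals. The 3 time points overlapped over nearly their whole range, and the log2 fold changes were 0.06, 0.00 and −0.05 (SE 0.12 each). The 95% interval of *PCNA* at week 18 vs. pre-treatment ran from −0.25 to 0.26.

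The nucleotide supply genes differed more between animals. *TYMS*, thymidylate synthase, had 6.88, 4.74, 10.7, 4.11 and 3.42 CPM before treatment, 9.03, 4.94, 10.3, 3.14 and 6.82 CPM at week 12, and 4.92, 4.88, 8.51, 4.26 and 3.87 CPM at week 18. Z15339 was the highest animal at all 3 time points. *RRM2*, the regulated subunit of ribonucleotide reductase, had 20.9, 14.6, 42.4, 13.4 and 20.8 CPM before treatment, 30.3, 17.7, 40.2, 10.3 and 24.7 CPM at week 12, and 12.4, 18.4, 29.9, 14.2 and 24.1 CPM at week 18. Here too Z15339 was the highest at each time point, and the groups overlapped. The log2 fold changes were 0.23 (SE 0.22), −0.14 (SE 0.22) and −0.37 (SE 0.22) for *TYMS* and 0.15 (SE 0.18), −0.11 (SE 0.19) and −0.26 (SE 0.19) for *RRM2*, in the order of comparisons used above.

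Of the mitotic genes, *MKI67*, which encodes the proliferation antigen Ki-67, had 20.9, 12.9, 37.4, 15.3 and 23.3 CPM before treatment in Z15228, Z13076, Z15339, Z15303 and Z15408. It had 27.1, 19.0, 35.2, 19.9 and 20.3 CPM at week 12 and 19.0, 10.4, 33.9, 19.7 and 18.0 CPM at week 18. Z15339 was highest and the 3 time points overlapped, while within every animal the week 18 value was below the week 12 value. *TOP2A*, the topoisomerase that untangles chromosomes before they separate, had 7.29, 4.40, 17.9, 9.10 and 11.0 CPM before treatment, 12.6, 6.38, 10.7, 7.01 and 6.62 CPM at week 12, and 7.64, 5.49, 11.6, 3.37 and 6.97 CPM at week 18. From pre-treatment to week 12 it was higher in Z15228 and Z13076 and lower in the other 3 animals.

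*CDK1*, the kinase that starts mitosis, had 3.8, 2.26, 5.49, 3 and 1.71 CPM before treatment, 4.15, 4.82, 4.08, 1.48 and 3.61 CPM at week 12, and 2.98, 1.71, 4.25, 3.01 and 3.87 CPM at week 18. *CCNB1*, its cyclin B1 partner, had 7.19, 4.29, 9.79, 4.44 and 5.02 CPM before treatment, 7.27, 6.99, 9.60, 7.01 and 6.82 CPM at week 12, and 6.35, 5.37, 6.83, 8.51 and 5.98 CPM at week 18. The lowest week 12 value of *CCNB1*, 6.82 CPM, was above the pre-treatment value of Z13076, Z15303 and Z15408, but not of the other 2 animals. *CDC20*, the activator of the anaphase-promoting complex, had 2.16, 4.74, 8.95, 2.22 and 1.71 CPM before treatment, 5.81, 1.2, 7.18, 1.85 and 4.92 CPM at week 12, and 1.55, 1.22, 6.38, 1.77 and 2.10 CPM at week 18. It was higher at week 12 than before treatment in Z15228 and Z15408 and lower in the other 3 animals. *CDC20* and *CDK1* had 10 to 75 and 8 to 46 counts per library, so their single values carry a wide counting error.

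**Figure D1:**
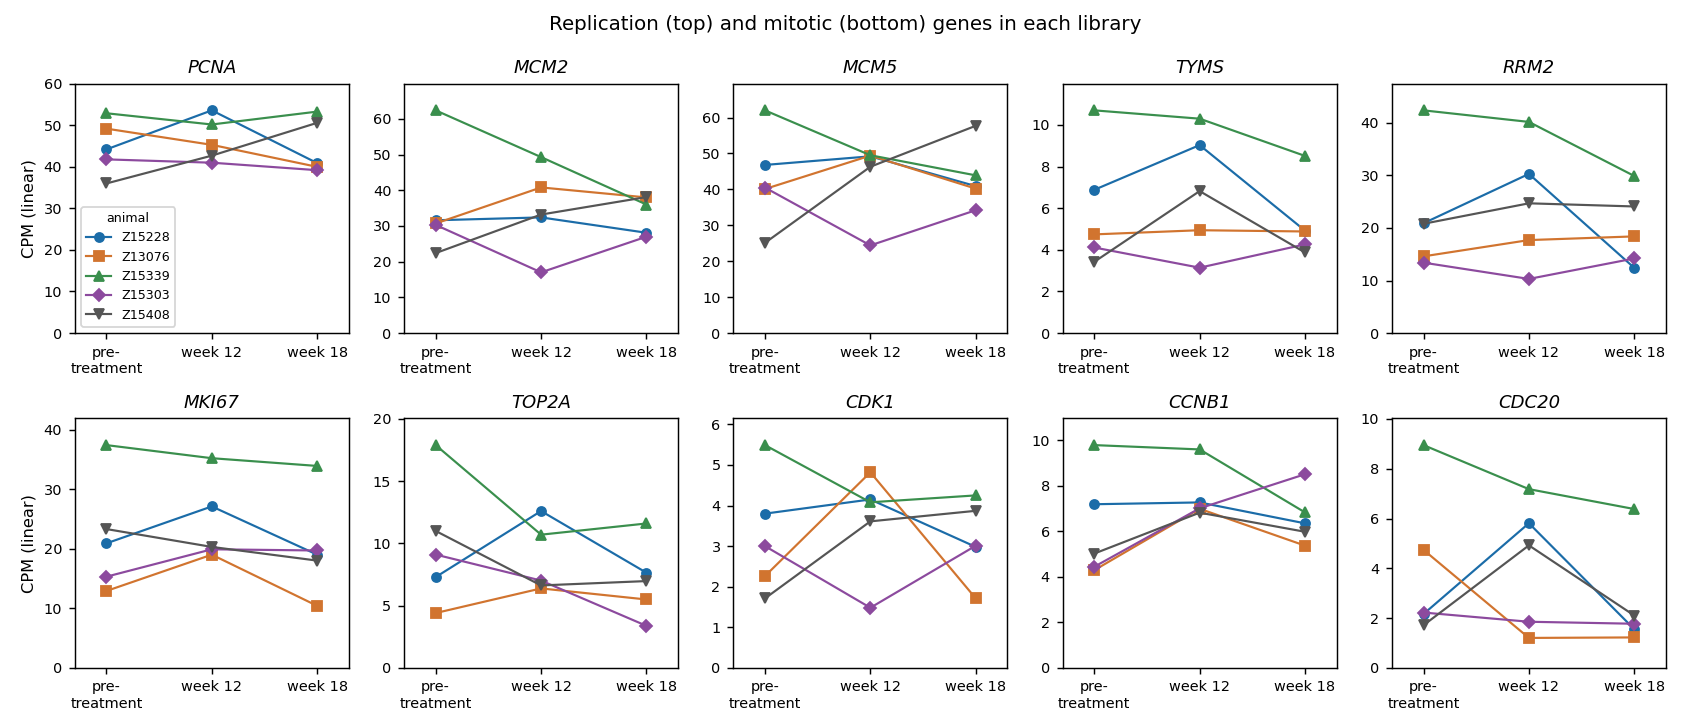
Expression in CPM (linear axis from 0) of 5 replication genes (top row) and 5 mitotic genes (bottom row) in each of the 15 libraries, with a line joining the pre-treatment, week 12 and week 18 libraries of each of the 5 animals. The time points overlap in every panel, and Z15339 (green triangles) is the highest animal before treatment for all 10 genes, with 37.4 CPM of *MKI67* where the other 4 animals have 12.9 to 23.3 CPM.

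The animal accounted for more of the spread of these genes than the time point did. Of the variance of log2 CPM over the 15 libraries, a median of 50.8% lay between animals for the 41 tested genes and 5.63% between time points. This was close to all tested features, with medians of 51.9% and 6.23%. The animal means of a cell cycle gene, however, spanned a median of 1.08 on the log2 scale, against 0.60 for all tested features. These genes were also measured with more error, with a median SE of 0.24 at week 12 vs. pre-treatment against 0.16 for all features. The part of that error in the wider span was not tested. The time point took a median of 3.69% for the replication genes and 7.42% for the mitotic genes.

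Z15339 was the highest of the 5 animals before treatment for 34 of the 41 genes (14 of 17 replication and 20 of 24 mitotic genes), where it was the highest for 18.1% of all tested features. At week 12 it was the highest for 21 of 41 (14.7% of all features) and at week 18 for 24 of 41 (15.1%). At the other end, Z15303 was the lowest animal for 24 of 41 genes at week 12 and for 16 of 41 at week 18. Over all features, its 2 libraries with the fewest counts were the lowest for 30.1% and 29.8% and the highest for 30.2% and 29.1%. Of the 41 genes, Z15303 was the highest for 4 at week 12 and for 4 at week 18. The part of depth in these ranks was not tested. The genes move together within an animal, so these counts describe 5 animals and not 41 independent measurements.

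Comparing week 12 with pre-treatment addresses whether cell cycle transcripts differed at the end of treatment. None of the 41 genes was called by edgeR, where 0.00776% of all tested features (1 of 12880) were, and none had an unadjusted p under 0.05, where 3.25% of all features did with a lower and 1.44% with a higher value. DESeq2 called 0 of the 40 that it gave an adjusted p, where it called 0.214% of all features (27 of 12630). No gene was lower in all 5 animals (3.45% of all features) and none was higher in all 5 (2.23%). The median log2 fold change was 0.05 for the replication and 0.04 for the mitotic genes, beside 0.00 for all features. The estimates were positive for 28 genes and negative for 13 (31.7% negative, against 49.8% of all features). This split rested on single animals, since 21 of 41 estimates were negative without Z15228, 7 of 40 without Z15339, and 29 of 42 in the 3 animals with the same dates.

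The 5 genes with the smallest p at week 12 were *CCNB1*, *CENPF*, *MKI67*, *E2F1* and *TTK*, all with an adjusted p of 0.982 by edgeR. *CCNB1* had a log2 fold change of 0.33 (SE 0.20, 95% interval −0.10 to 0.76) and was higher in 4 of 5 animals. *CENPF*, a kinetochore protein of late G2, had 0.39 (SE 0.28), and its values went from 2.26 to 8.67 CPM in Z13076 and from 8.68 to 5.82 CPM in Z15408. Without Z13076 its estimate was 0.02, and without Z15408 it was 0.65. *MKI67* had 0.20 (SE 0.15), and 0.11 without Z13076 or 0.31 without Z15408. *E2F1*, the transcription factor of S phase entry, had −0.27 (SE 0.20), and *TTK*, the spindle checkpoint kinase MPS1, had −0.42 (SE 0.36), each lower in 4 of 5 animals. The estimate of *E2F1* was −0.11 without Z15228 and −0.49 without Z15408, and that of *TTK* was −0.72 without Z13076 and −0.28 without Z15408. The lowest and highest estimates were those of the low-count genes *KIF20A*, a motor of cytokinesis (−0.45, SE 0.40), and *NUSAP1*, a spindle protein (0.42, SE 0.39).

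By role, the 8 licensing genes had log2 fold changes of −0.28 to 0.36 at week 12, the 3 tested fork genes 0.05 to 0.12, and the 4 nucleotide supply genes −0.03 to 0.25. Of the mitotic genes, the 8 cyclins and kinases lay between −0.42 and 0.33, the 5 tested checkpoint and kinetochore genes between −0.10 and 0.39, and the 6 spindle and motor genes between −0.45 and 0.42. *UHRF1* was at −0.14, *FOXM1* at 0.05, *CDC20* and *UBE2C* at 0.15 and −0.01, and *TOP2A* at −0.14. The 95% interval stayed within a 2-fold change in either direction for 35 of the 41 genes. For the other 6 genes it took in a 2-fold difference.

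The week 18 vs. pre-treatment comparison asks whether these transcripts differed from the start at the time point that the paper places after treatment. None of the 41 genes was called by edgeR, beside 0.00776% of all features, and none by DESeq2, beside 0.334% of all features (43 of 12880). With an unadjusted p under 0.05, 3 genes were lower and 0 were higher, where the shares of all features were 3.78% lower and 2.07% higher. Of the 41 estimates, 33 were negative and 8 positive (80.5% negative, against 51.0% of all features), with a median log2 fold change of −0.10 for the replication and −0.15 for the mitotic genes. Negative estimates numbered 25 of 41 without Z15228, 29 of 42 without Z13076, 26 of 40 without Z15339, 31 of 42 without Z15303 and 36 of 41 without Z15408. In the 3 animals with the same dates they numbered 26 of 42, with 16 positive. The replication median was −0.01 without Z15339 and −0.22 without Z15408. In all 5 animals, 2 genes were lower (3.49% of all features) and 0 were higher (3.04%).

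*ASPM*, a spindle pole protein, had the smallest p. It had 7, 12, 19, 13 and 9 counts in the pre-treatment libraries of Z15228, Z13076, Z15339, Z15303 and Z15408, 20, 4, 22, 4 and 11 counts at week 12, and 7, 2, 6, 1 and 8 counts at week 18. In CPM the means were 1.36 ± 0.582, 1.37 ± 0.848 and 0.577 ± 0.348. Week 18 was below pre-treatment in 4 of 5 animals and the groups overlapped, with a log2 fold change of −1.23 (SE 0.49, 95% interval −2.27 to −0.19, adjusted p = 0.814 by edgeR). At these counts the gene was measured with a wide error.

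*UHRF1*, which carries DNA methylation through replication, had 4.42, 3.50, 6.57, 4.11 and 5.25 CPM before treatment, 5.19, 5.06, 4.97, 2.40 and 4.41 CPM at week 12, and 3.88, 3.30, 5.04, 0.532 and 2.88 CPM at week 18. It was lower at week 18 than before treatment in 5 of 5 animals, by far the most in Z15303, where it had 3 counts. Its log2 fold change was −0.67 (SE 0.29, adjusted p = 0.825 by edgeR), and −0.38 without Z15303. *CDC6*, the loader of the MCM helicase, had 1.34, 1.47, 2.15, 1.11 and 1.48 CPM before treatment, 2.08, 1.93, 1.44, 0.185 and 0.803 CPM at week 12, and 0.906, 0.366, 1.23, 0.177 and 1.22 CPM at week 18. It too was lower in 5 of 5 animals at week 18, with 1 count in Z15303 at week 12 and again at week 18, and a log2 fold change of −0.97 (SE 0.46, adjusted p = 0.843 by edgeR).

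The next genes were *TOP2A*, at −0.47 (SE 0.24), and *BUB1*, a checkpoint kinase at kinetochores, at −0.77 (SE 0.40), each with an adjusted p of 0.856 by edgeR. *TOP2A* was lower in 3 of 5 animals and *BUB1* in 4 of 5. *BUB1* had 3 to 35 counts per library, with 3 in Z13076 and 6 in Z15303 at week 18, so it was measured with a wide error. Without Z15303 the estimate of *TOP2A* was −0.28. The licensing genes ranged from −0.97 to 0.03, the fork genes from −0.02 to 0.08, the nucleotide supply genes from −0.32 to −0.08, the cyclins and kinases from −0.31 to 0.13, the checkpoint and kinetochore genes from −0.77 to 0.09, and the spindle and motor genes from −1.23 to 0.37. The regulators *UHRF1* and *E2F1* were at −0.67 and −0.20, *FOXM1*, a transcription factor of mitotic genes, at −0.01, the mitotic exit genes *CDC20* and *UBE2C* at −0.66 and −0.32, and *TOP2A* and *MKI67* at −0.47 and −0.12. The 95% interval stayed within 2-fold for 32 of 41 genes.

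Week 18 vs. week 12 asks whether the transcripts differed between the time points that the paper places at the end of treatment and after it. None of the 41 genes was called by edgeR, beside 0% of all features, and none by DESeq2, beside 0.00776% (1 of 12880). At an unadjusted p under 0.05, 3 genes were lower (1.01% of all features) and 0 were higher (1.16%). The estimates were negative for 36 genes and positive for 5 (87.8% negative, against 50.7% of all features), with medians of −0.14 for the replication and −0.27 for the mitotic genes. The mitotic median was −0.15 without Z15228 and −0.03 in the 3 animals with the same dates, and the replication median −0.07 and −0.05. In all 5 animals, 5 genes were lower (2.87% of all features), namely *ASPM*, *TK1*, *MKI67*, *MCM6* and *MCM7*, and 0 were higher (2.99%). The count of negative estimates leaned on Z15228 and Z13076, since it was 29 of 41 without Z15228, 32 of 42 without Z13076, and 23 of 42 in the 3 animals with the same dates.

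*ASPM* again had the smallest p, with a log2 fold change of −1.16 (SE 0.49). *TK1*, the thymidine kinase of S phase cells, had 5.65, 5.87, 9.55, 6.10 and 3.65 CPM before treatment, 8.41, 5.30, 8.94, 5.17 and 8.63 CPM at week 12, and 2.98, 3.78, 7.05, 3.90 and 7.31 CPM at week 18. It was lower at week 18 in 5 of 5 animals, most of all in Z15228, and the groups overlapped, with a log2 fold change of −0.57 (SE 0.26) and of −0.35 without Z15228. *MKI67* had −0.32 (SE 0.15, 95% interval −0.63 to −0.01), with differences of −0.50, −0.86, −0.05, −0.02 and −0.17 on the log2 scale in Z15228, Z13076, Z15339, Z15303 and Z15408, so that 3 of the 5 animals differed little. Its estimate was −0.19 without Z13076 and −0.08 in the 3 animals with the same dates. *CDC20* had −0.80 (SE 0.40) and *BUB1* −0.79 (SE 0.41), each lower in 4 of 5 animals, with *CDC20* at −0.47 without Z15228 and *BUB1* at −0.36 without Z13076. The adjusted p by edgeR was 1 for each of the 5 genes.

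The helicase subunits *MCM6* and *MCM7* were lower in every animal by small amounts. *MCM6* had 25.3, 21.2, 35.9, 16.9 and 21.6 CPM before treatment, 27.8, 26.4, 25.3, 13.3 and 25.3 CPM at week 12, and 22.7, 22.6, 20.5, 12.4 and 21.5 CPM at week 18. Its log2 fold change from week 12 to week 18 was −0.24 (SE 0.14), and that of *MCM7* was −0.06 (SE 0.11). By role, the licensing genes ranged from −0.69 to 0.01, the fork genes from −0.07 to −0.04, the nucleotide supply genes from −0.57 to −0.05, the cyclins and kinases from −0.35 to 0.20, the checkpoint and kinetochore genes from −0.79 to 0.02, and the spindle and motor genes from −1.16 to −0.05. *UHRF1* and *E2F1* were at −0.53 and 0.07, *FOXM1* at −0.06, *UBE2C* at −0.31 and *TOP2A* at −0.33. The 95% interval stayed within 2-fold for 31 of 41 genes, and for the other 10 it reached a 2-fold lower and not a 2-fold higher value.

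**Figure D2:**
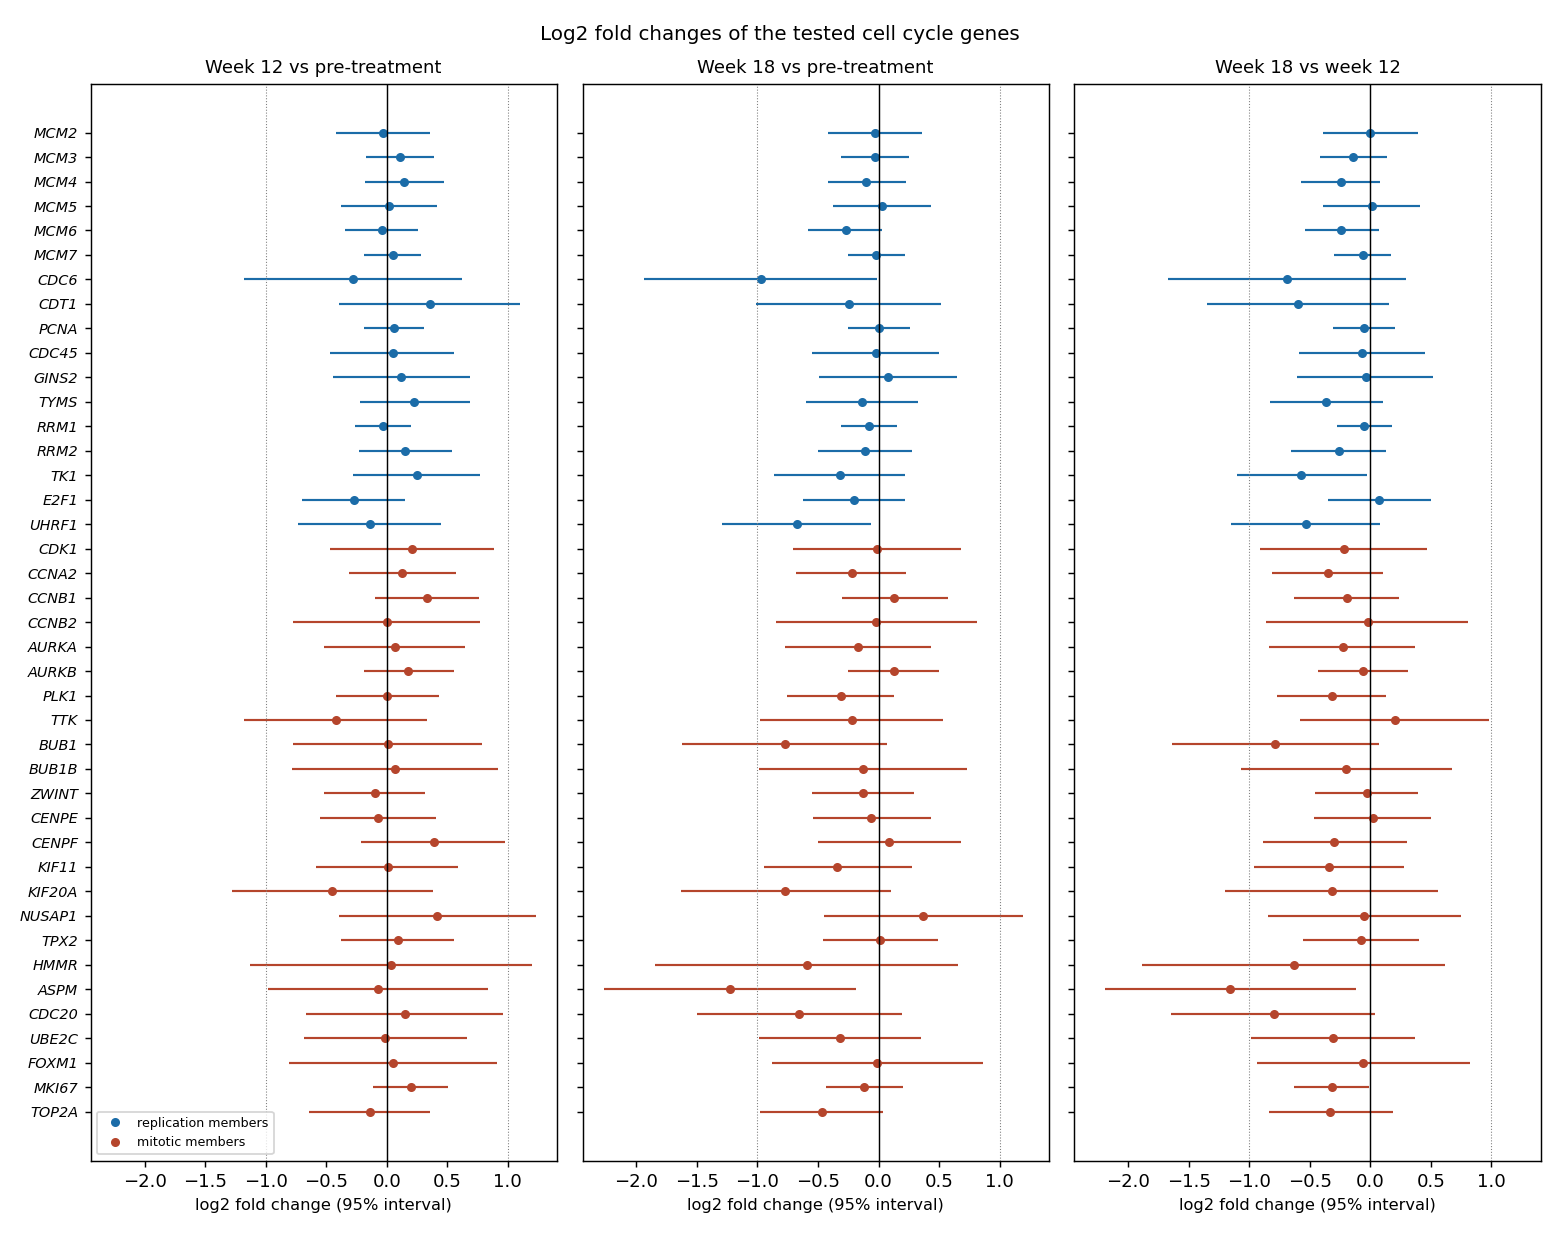
Log2 fold changes (points) with 95% intervals (lines) of the 41 tested genes in each comparison, replication genes in blue and mitotic genes in red, with dotted lines at a 2-fold change. No gene passed an adjusted p of 0.05, and the points lie left of 0 for 13, 33 and 36 of the 41 genes from the left panel to the right.

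The replication and mitotic genes were compared as classes by the mean log2 CPM of their tested genes in each library. The replication mean was 3.98 ± 0.37 before treatment, 4.02 ± 0.32 at week 12 and 3.81 ± 0.23 at week 18, and the mitotic mean 2 ± 0.45, 2.03 ± 0.37 and 1.77 ± 0.39 (SD, n = 5). The 5 animals overlapped between time points in both classes. From pre-treatment to week 12 the replication mean differed by 0.19, 0.14, −0.20, −0.39 and 0.49 in Z15228, Z13076, Z15339, Z15303 and Z15408, and the mitotic mean by 0.45, 0.21, −0.31, −0.29 and 0.11. In each animal both classes differed with the same sign, positive in 3 animals and negative in 2.

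From pre-treatment to week 18 the replication mean differed by −0.34, −0.12, −0.42, −0.46 and 0.46, and the mitotic mean by −0.35, −0.21, −0.38, −0.14 and −0.06, in the same order of animals. The mitotic mean was thus lower in 5 of 5 animals, and the replication mean in 4 of 5, with Z15408 the exception. By the median gene instead of the mean, the mitotic genes were lower in 4 of 5 animals (0.02 in Z15303) and the replication genes in 3 of 5 (0.04 in Z13076 and 0.47 in Z15408). From week 12 to week 18 the replication mean differed by −0.53, −0.25, −0.22, −0.06 and −0.03, and the mitotic mean by −0.80, −0.41, −0.07, 0.14 and −0.16. Here the replication mean was lower in 5 of 5 animals and the mitotic mean in 4 of 5, Z15303 being the exception, and Z15228 had the largest difference in both classes. By the median gene the replication genes were lower in 4 of 5 animals, with 0.05 in Z15408, and the mitotic genes in 4 of 5.

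The difference between the classes was small beside its spread. The mitotic minus the replication value averaged −0.01 (SD 0.24) at week 12 vs. pre-treatment, −0.05 (SD 0.30) at week 18 vs. pre-treatment and −0.04 (SD 0.21) at week 18 vs. week 12. The mitotic value was the more negative in 2, 3 and 3 of the 5 animals. In Z15408 the classes stood furthest apart, by −0.38 at week 12 and −0.51 at week 18 vs. pre-treatment, and in Z15303 the difference had the opposite sign, at 0.11 and 0.31. No p is given for these means, since the genes of a class are not replicates of a condition.

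**Figure D3:**
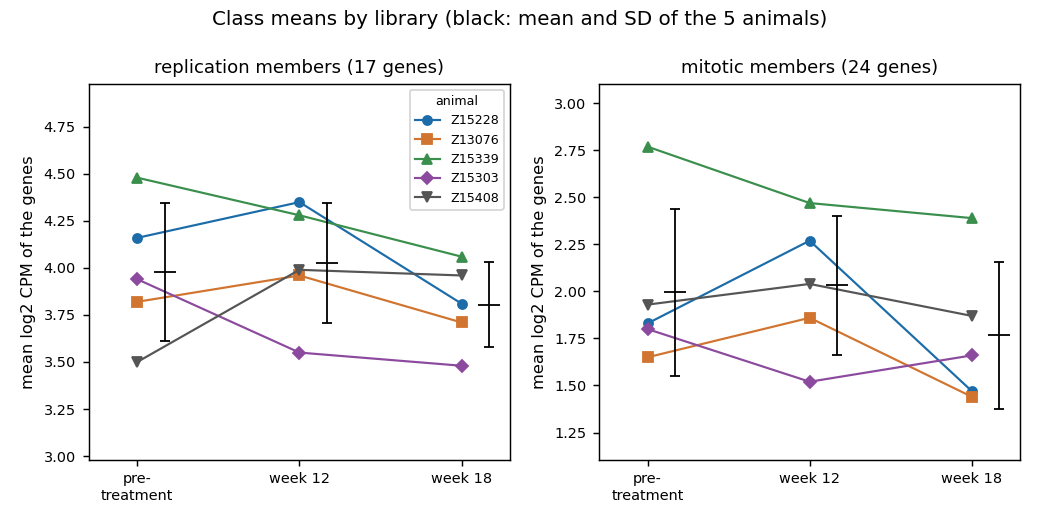
Mean log2 CPM of the 17 tested replication genes (left) and the 24 tested mitotic genes (right) in each library, with lines joining the libraries of each animal and black bars giving the mean and SD of the 5 animals. Z15339 has the highest mitotic mean at each time point (2.77 before treatment, with the next animal at 1.93), and the time points overlap in both classes.

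*E2F1* differed between animals far more than any other of the 41 genes. It had 161, 95.5 and 114 CPM in the pre-treatment, week 12 and week 18 libraries of Z15228, and 181, 144 and 191 CPM in those of Z15303. The other animals had 14.6, 11.1 and 8.54 CPM (Z13076), 18.4, 13.6 and 11.1 CPM (Z15339), and 5.71, 12.0 and 12.8 CPM (Z15408). The 6 libraries of Z15228 and Z15303 thus lay at 95.5 CPM or more and the other 9 at 18.4 CPM or less, at each time point. The animal accounted for 96.5% of the variance of its log2 CPM, and the animal means spanned 4.12 on the log2 scale, a span that 82 of the 12880 tested features (0.637%) exceeded. The next widest span among these genes was 1.96, for the mitotic ubiquitin-conjugating enzyme *UBE2C*.

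*MCM2* and *TYMS*, both known E2F targets, were not split in this way. *MCM2* averaged 4.95 and 4.60 log2 CPM over the libraries of Z15228 and Z15303, within or below the 4.94 to 5.59 of the other 3 animals, and *TYMS* averaged 2.80 and 2.01, against 2.24 to 3.33. The animal means of *PCNA* and *MCM7* spanned 0.36 and 0.22. How reads at the *E2F1* locus were assigned in the animals was not tested, and whether counting used strand is not given in the sources used here, so reads of an overlapping transcript cannot be told apart from those of the gene.

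**Figure D4:**
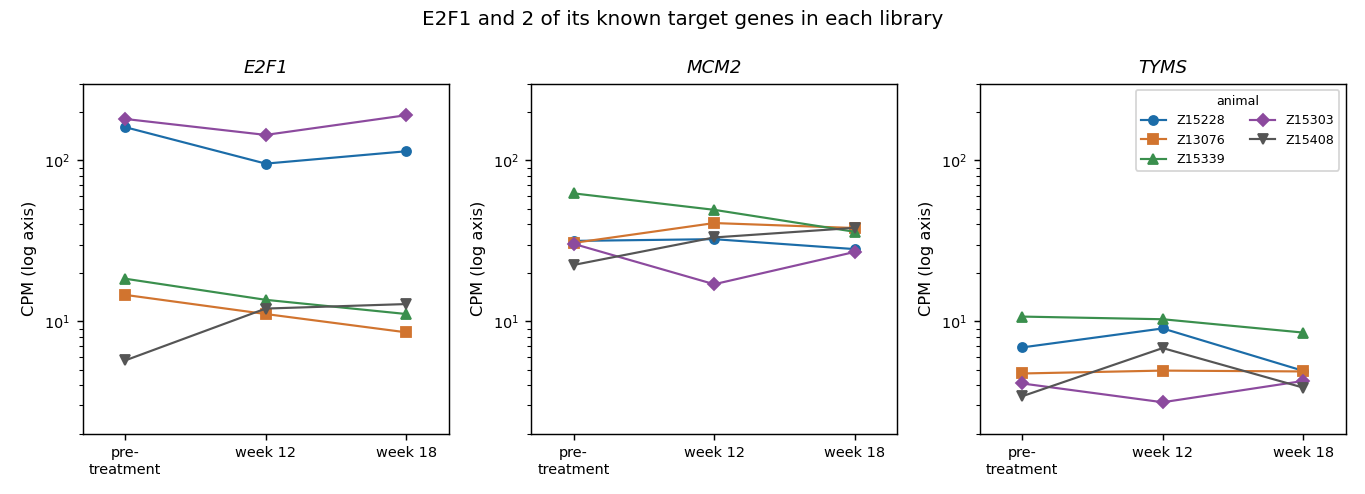
CPM (log axis) of *E2F1* and of its known target genes *MCM2* and *TYMS* in the 15 libraries, with a line for each animal. For *E2F1* the libraries of Z15228 and Z15303 lie between 95.5 and 191 CPM and those of the other 3 animals between 5.71 and 18.4 CPM, while for *MCM2* and *TYMS* the animals overlap.

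Depth limited the mitotic genes more than the replication genes. Of the 41 tested genes, 12 averaged under 30 counts per library, 10 of them mitotic and 2 replication genes (*CDC6* and *GINS2*). The averages ran from 9.13 counts for *HMMR*, a spindle protein, to 2178 for *MCM7*, with a median of 43.9. *HMMR* had 0 counts in Z15228 at week 18, which allows up to 3 counts. Standard errors of the log2 fold changes ran from 0.11 for *MCM7* and *RRM1* to 0.60 for *HMMR*.

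Other genes of the same processes were counted for comparison. Of 45 further replication genes (polymerases, clamp loaders, origin and fork factors) 36 were tested, with median log2 fold changes of −0.02, −0.06 and −0.03 for week 12 and then week 18 against pre-treatment and for week 18 against week 12. None passed an adjusted p of 0.05. The 3 with the smallest p were *TICRR*, which helps fire origins, at −0.85 (SE 0.31, adjusted p = 0.730 by edgeR) at week 18 vs. pre-treatment, *GINS3*, a subunit of the active helicase, at −0.78 (SE 0.33, adjusted p = 0.928) at week 12, and *ORC3*, of the origin recognition complex, at −0.26 (SE 0.13, adjusted p = 0.982) at week 12. *TICRR* and *GINS3* were lower in 5 of 5 animals in those comparisons.

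Of 52 further mitotic genes 42 were tested, with medians of 0.04, −0.13 and −0.15. Negative estimates numbered 17, 32 and 33 of the 42 (40.5%, 76.2% and 78.6%, against 49.8%, 51% and 50.7% of all features). How far these counts rest on single animals was not tested. None passed here either. *PRC1*, which bundles the microtubules of the central spindle, had a log2 fold change of 0.74 (SE 0.33) at week 12, higher in 5 of 5 animals, and of −1.16 (SE 0.35) from week 12 to week 18, lower in 5 of 5 animals (adjusted p = 0.982 and 1 by edgeR). *NCAPH*, a condensin subunit, had −0.57 (SE 0.23) from week 12 to week 18, and *TACC3*, a spindle protein, 0.26 (SE 0.10, adjusted p = 0.811) at week 18 vs. pre-treatment.

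Of 21 genes that hold cells in or lead them through G1, 19 were tested, with medians of 0.02, −0.02 and 0.04, and none passed. The smallest p belonged to *RB1*, the retinoblastoma protein that restrains E2F, at −0.37 (SE 0.13, adjusted p = 0.788 by edgeR) at week 12, to *MYC*, a driver of growth, at 0.36 (SE 0.15, adjusted p = 0.824) at week 18 vs. pre-treatment, and to *LIN37*, of the DREAM repressor complex, at 0.26 (SE 0.13, adjusted p = 0.982) at week 12. *RB1* was lower in 3 of 5 animals.

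Marker genes of the PBMC cell types were present in every library, among them *CD3D* of T cells at 2811 to 5407 counts, *CD14* of monocytes at 1986 to 9642 and *MS4A1* of B cells at 61 to 1860. B cell markers differed between the time points at which the cell cycle genes were compared. Their summed level was 262 to 1090 CPM before treatment, 150 to 553 at week 12 and 195 to 456 at week 18, with median log2 fold changes of −1, −1.05 and −0.06 in the 3 comparisons over the 10 of 11 genes that were tested. All 10 had an unadjusted p under 0.05 at week 12 and at week 18 vs. pre-treatment, and 0 passed an adjusted p of 0.05 by edgeR. The medians of the T cell markers were 0.09, 0.10 and 0.02, of the NK cell markers 0.10, −0.08 and −0.20, of the monocyte markers −0.05, 0.27 and 0.33, of the plasmablast markers −0.31, −0.39 and −0.12, and of the progenitor markers −0.27, −0.22 and 0.01. The medians of the red cell markers (4 of 9 tested) were −0.01, −0.30 and −0.19, of the platelet markers 0.19, 0.07 and −0.09, and of the granulocyte markers −0.34, 0.47 and 0.55. The part of any cell type in the values of the cell cycle genes was not tested.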

How the data were processed

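RNA-seq libraries were prepared by the authors from PBMC RNA with SMART-Seq amplification, which keeps no molecular identifiers, and reads were aligned with STAR 2.7.9a to the *M. nemestrina* annotation of Ensembl release 95. The authors deposited raw read counts per gene from STAR's gene counting, and the strand setting is not given in the sources used here. Samples were grouped by the time point and paired by the subject given in the labels.

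Counts were analysed in R 4.3.3 with edgeR 4.0.16. Features were kept by filterByExpr (minimum count 10), libraries were scaled by TMM, and the quasi-likelihood F test was fitted to all 15 libraries with time point and animal as terms. The animal was used as a block because libraries with the same subject label come from the same animal. Their deviations from the time point means correlated at a mean of 0.551 (lowest 0.351, 15 pairs), against −0.137 over 60 other pairs. No 2 animals at the same time point had libraries that agreed within sampling noise. Libraries of the same animal were not compared in this way. A feature was called at a Benjamini-Hochberg adjusted p under 0.05. SE is the absolute log2 fold change over the square root of F, and 95% intervals are from the fit. Log2 CPM used a prior count of 2. The fit was also run on simulated counts with known changes. Its outcome is not reported here, and no result rests on it.

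The cell cycle genes and the other lists were chosen with earlier results of these data known. The rule for named genes was that *MKI67*, *TOP2A*, *PCNA*, *MCM2*, *MCM5*, *TYMS*, *RRM2*, *CDK1*, *CCNB1* and *CDC20* are given in every library, that the 5 genes with the smallest p in each comparison are named, and that of the further lists the 3 with the smallest p are named if none passes. Of genes named beyond it, such as *KIF20A*, *NUSAP1*, *UBE2C* and *HMMR*, the choice was made after their values were seen.

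Total counts per library ranged from 5610597 to 10379572, with a median of 8871860. Counts describe sequenced fragments of amplified cDNA, so floors cover counting error only. Alternatives were the fit with no replicate block, DESeq2 1.42.0, other scalings, no filter, leaving out each animal, and the 3 animals with the same dates. No reference sequence or gene coordinate was used here.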

Additional observations from a re-analysis of the deposited data

Results flagged for a closer look

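Of 129 sets of 5 animals (a gene or class mean at a time point), 14 held an animal whose gap to its nearest neighbour exceeded a share of 0.71 of the whole range (Dixon's criterion). Chance gives about 1 in 20, and the genes move together within a library, so the 14 are not independent of each other. In 10 of them the animal was Z15303 and it was the lowest, in the 2 libraries with the fewest counts. In log2 CPM, at week 12, these were *MCM3* at 4.25, *MCM5* at 4.62, *MCM6* at 3.76, *UHRF1* at 1.40, *CDK1* at 0.78, *TTK* at 0.21 and *HMMR* at −1.25. At week 18 they were *MCM6* at 3.66, *RRM1* at 5.79 and *UHRF1* at −0.38. The part of depth in these values was not tested.

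In the other 4 the animal was Z15339 and it was the highest. *MCM4* stood at 5.11 before treatment, with the next animal at 4.62, *CCNB1* at 3.30 at week 12, with the next at 2.91, and *CCNB2*, the cyclin B2 gene, at 2.05 at week 18, with the next at 0.94. The mean of the mitotic genes stood at 2.77 before treatment, with the next animal at 1.93.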

How the results depend on the processing

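None of the cell cycle genes was called under the alternatives run, and the class medians and their difference moved by less than 1 SD between animals in all 108 recomputed values. That SD is wide beside the medians, which moved with the animals included. The mitotic median at week 12 vs. pre-treatment was 0.04, −0.13 without Z15228 and 0.19 without Z15339, and at week 18 vs. week 12 it was −0.27, and −0.03 in the 3 animals with the same dates. The number of all features called at week 12 vs. pre-treatment was 1, and became 0 with no replicate block, 27 by DESeq2, 83 with no filter on low counts, 7 in the 3 animals with the same dates, and 0 to 6 when each animal was left out. At week 18 vs. pre-treatment it was 1, and became 0 with no replicate block, 43 by DESeq2, 10 with library totals in place of TMM, 136 with no filter, 7 in the 3 animals, and 0 to 17 when each animal was left out. At week 18 vs. week 12 it was 0, and became 1 by DESeq2 and 5 with no filter. The cause was not tested. With no replicate block 18, 32 and 36 of the 41 genes had negative estimates for week 12 and then week 18 against pre-treatment and for week 18 against week 12. The shares of all features were 49%, 49.8% and 51.1%. Library totals gave 17, 35 and 38, beside 52.6%, 55.4% and 52.9% of all features.

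Of the recomputed estimates of single genes 399 kept their sign and 39 changed it. In the 3 animals these were, at week 12, *CENPF* (0.00), *MCM5* (−0.09), *RRM2* (−0.02) and *CDK1* (−0.09), at week 18 vs. pre-treatment *CDK1* (0.19), and at week 18 vs. week 12 *PCNA* (0.10) and *CDK1* (0.28). With library totals they were *PCNA* (−0.02) at week 18 vs. pre-treatment, and *MCM2* (−0.01) and *MCM5* (0.00) at week 18 vs. week 12. With no replicate block they were *MCM2* (−0.05) and *MCM5* (−0.01) at week 18 vs. week 12. When each animal was left out, estimates at week 12 ran from −0.38 to 0.03 for *TOP2A*, −0.16 to 0.14 for *MCM2*, −0.15 to 0.20 for *MCM5*, −0.03 to 0.42 for *CDK1* and −0.22 to 0.62 for *CDC20*. At week 18 vs. pre-treatment they ran from −0.12 to 0.08 for *PCNA*, −0.22 to 0.17 for *MCM2*, −0.24 to 0.17 for *MCM5*, −0.23 to 0.03 for *RRM2*, −0.28 to 0.11 for *CDK1* and −0.05 to 0.32 for *CCNB1*. At week 18 vs. week 12 they ran from −0.14 to 0.03 for *PCNA*, −0.12 to 0.11 for *MCM2*, −0.09 to 0.09 for *MCM5* and −0.41 to 0.09 for *CDK1*. Of the 41 genes 12 averaged under 30 counts per library. Restricting the medians to genes with at least 30 counts, an alternative chosen after seeing the data, moved them by less than 1 SD.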
